A study of Mus musculus with 6 samples.

Results

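The 40 genes described here act in the G2 and M phases of the cell cycle, from the entry into mitosis to the separation of the daughter cells. They were chosen as a list of gene symbols, with earlier results of these data known. The symbols were looked up in the deposited table of estimated transcript counts, whose transcripts were summed by symbol. All 40 were found, with 136 of the 120299 transcripts, among 38896 gene symbols. All 40 also passed the filter on low counts that left 19869 genes to test. The RNA came from fibroblasts of the mouse distal colon, cells of the connective tissue beneath the gut lining, taken at 6 weeks of age. The cells were grown for 2 passages and then kept for 24 h in control or inflammatory conditioned medium. Cultures of the mice 1716, 1717 and 1718 gave a control and a DSS library apiece (3 libraries in each group), where DSS commonly stands for dextran sulfate sodium, used to induce colitis in mice. The labels give control and DSS in the titles and in the genotype field, and do not tie either name to a medium. DSS was read here as the inflammatory medium, so the identity of the groups rests on that reading. The sources used here give neither the making of that medium nor the strain or sex of the animals. Beyond those 2 words the labels name no gene deletion, no transgene and no sorting of the cells. The RNA of each culture was read in bulk, so fewer dividing cells and less of these transcripts in each dividing cell cannot be told apart.

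A cell that has copied its DNA passes through G2 and enters mitosis when the kinase Cdk1, bound to cyclins A and B, becomes active. Aurora and Polo-like kinases then build the spindle, kinesins move chromosomes along it, and kinetochores tie each chromosome to its fibres. The ubiquitin ligase called the anaphase-promoting complex finally destroys the cyclins, and the cell divides. The transcripts of these genes are made mainly in G2 and M and are low in resting cells, which is why several of them serve as markers of dividing cells. Their promoters are known for the CCAAT box, which the factor NF-Y binds, and for the cell cycle genes homology region, through which the MuvB complex acts with repressors in resting cells and with B-Myb and Foxm1 in dividing ones.

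Those elements were looked for in the RefSeq promoter windows (build GRCm38.p6), which run from 250 bases before to 50 bases after the transcript start that the table uses for the gene. Distances below are from that start. A window was found for 33 of the 40 genes, and Aurkb, Ccna2, Cdc25c, Dlgap5, Foxm1, Kif20a and Tpx2 had none in the table. The letters searched were CCAAT for the box and TTTGAA or TTCGAA for the homology region, on both strands. Neither motif contains the other, though matches may overlap at their ends. Of the 33 genes 24 (72.7%) held CCAAT, 26 (78.8%) held TTTGAA or TTCGAA and 21 (63.6%) held both. Over all 27025 genes of the promoter table the shares were 41.1%, 21.7% and 8.61%. The homology region letters lay within 50 bases of the start, on either side, in 23 of the genes. For 47 other G2 and M genes with a window the shares were 68.1% for CCAAT, 72.3% for TTTGAA or TTCGAA and 55.3% for both. For 32 DNA replication genes with a window they were 65.6% for CCAAT, 18.8% for TTTGAA or TTCGAA and 15.6% for both. These are matches of letters in a window, not tested binding sites. In the 250 bases before the start alone, TTTGAA or TTCGAA was found in 13 of the 33 genes and both motifs in 12, against 19.6% and 7% of all genes.

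The letters are shown in place in 5 promoters, each read along its gene from 5′ to 3′ and ending before the annotated gene. For Ckap2, Cdk1 and Cdc20 that is the start of the window, while the annotated genes Mki67 and Top2a reach 71 and 10 bases further upstream, so that their printed stretches are 179 and 240 bases long. Capitals mark both motifs, on either strand. The first 4 are those with the highest mean levels among the genes described in full that hold both motifs before the start. Plk1 and Cenpa hold the homology region letters only after the start and are not printed. Cdc20 was added after its values were seen because it had the lowest log2 fold change. They lie on the minus strand at chr7:135716451-135716629, chr11:99024200-99024439, chr8:22185820-22186069, chr10:69352913-69353162 and chr4:118437344-118437593 in the same order.
Mki67: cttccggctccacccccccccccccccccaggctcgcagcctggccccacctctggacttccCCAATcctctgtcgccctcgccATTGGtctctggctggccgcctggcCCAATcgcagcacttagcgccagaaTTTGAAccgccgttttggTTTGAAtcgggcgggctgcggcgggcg
Top2a: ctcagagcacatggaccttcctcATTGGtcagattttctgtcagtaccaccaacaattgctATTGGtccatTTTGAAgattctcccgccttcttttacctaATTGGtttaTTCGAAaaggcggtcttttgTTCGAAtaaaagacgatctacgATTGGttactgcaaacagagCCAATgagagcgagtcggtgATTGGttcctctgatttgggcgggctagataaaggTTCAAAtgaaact
Ckap2: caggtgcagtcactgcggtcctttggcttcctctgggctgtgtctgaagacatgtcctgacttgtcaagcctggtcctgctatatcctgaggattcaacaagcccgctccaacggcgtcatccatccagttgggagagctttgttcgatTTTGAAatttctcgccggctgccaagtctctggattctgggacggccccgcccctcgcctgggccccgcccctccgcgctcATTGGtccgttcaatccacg
Cdk1: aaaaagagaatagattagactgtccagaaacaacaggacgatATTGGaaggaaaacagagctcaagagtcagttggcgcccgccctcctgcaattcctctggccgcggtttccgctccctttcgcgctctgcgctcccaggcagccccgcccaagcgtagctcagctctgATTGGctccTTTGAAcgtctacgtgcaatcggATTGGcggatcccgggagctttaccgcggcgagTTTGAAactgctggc
Cdc20: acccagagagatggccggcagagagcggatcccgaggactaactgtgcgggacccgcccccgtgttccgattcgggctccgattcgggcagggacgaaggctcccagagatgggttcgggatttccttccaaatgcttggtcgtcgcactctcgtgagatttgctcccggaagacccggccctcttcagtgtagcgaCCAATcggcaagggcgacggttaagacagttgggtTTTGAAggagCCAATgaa
Ckap2, whose level differed least between the groups, and Cdc20, whose level differed most, both hold the 2 motifs, but in different arrangements. In Cdc20 the homology region letters start at base -18, between CCAAT matches at -53 and -8. In Ckap2 they start at -101, upstream of the only CCAAT match, at -20. Whether the arrangement bears on the change was not tested.

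**Figure D1:**
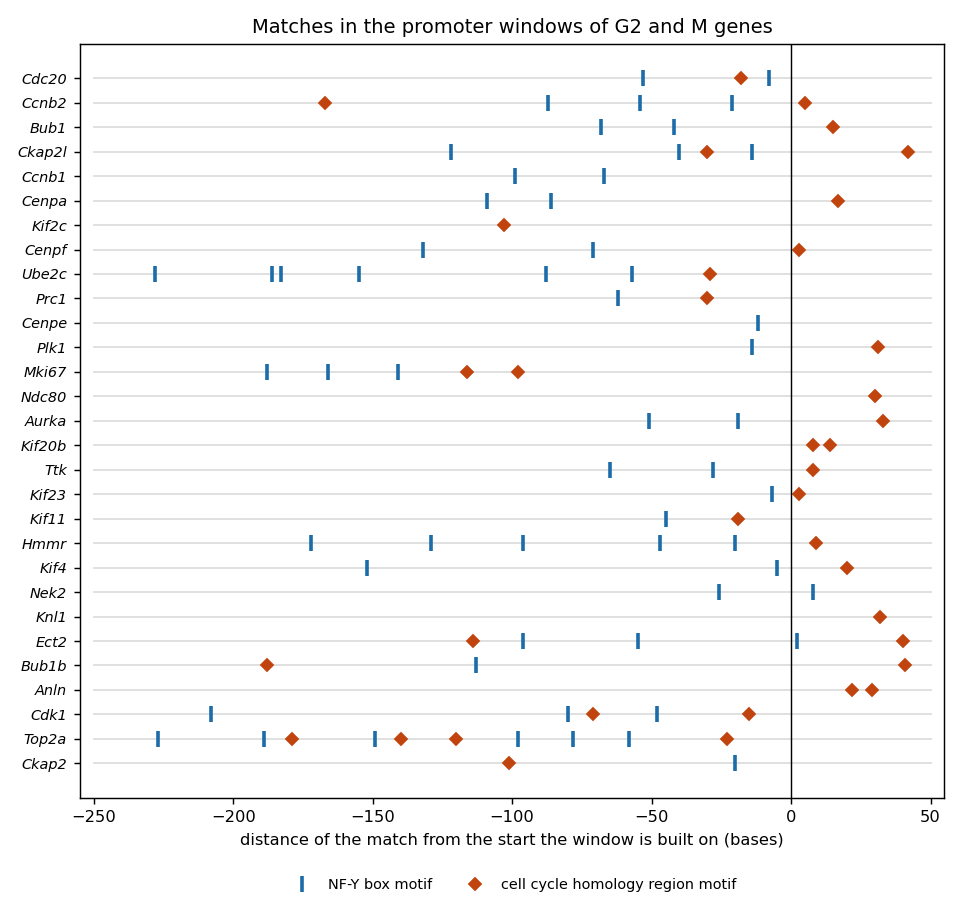
Positions of motif matches in the promoter windows of the 29 genes with at least 1 match, as the distance in bases of the first matched letter from the start the window is built on (x axis), for the first window of each gene. Genes are ordered from the lowest to the highest log2 fold change (DSS against control), blue bars mark the box that NF-Y binds and orange diamonds the cell cycle homology region. Most diamonds lie within 50 bases of the start.

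The libraries held 17293680 to 19482938 estimated counts, and the 40 genes together held 15099 to 47530 of them. Levels are given as CPM, the library's counts scaled to a common total with TMM factors, and are not corrected for transcript length. A log2 fold change is DSS over control and is followed by its SE. All 10 markers of fibroblasts were detected, with a summed level, most of it from the collagens Col1a1, Col1a2 and Col3a1, of 37360 to 44070 CPM in control and 20130 to 24720 CPM in DSS. By edgeR without the block 5 of them fell and 1 rose, the receptor Pdgfra (log2 fold change 0.71 ± 0.14, adjusted p = 0.0178). Epithelial markers summed to 11.6 to 16.7 CPM in control and 3.70 to 6.02 CPM in DSS, with 3 of 10 tested. Muc2 was the largest part of that sum, at 7.74 to 11.6 CPM in control and 1.48 to 2.55 CPM in DSS. Epcam held 5 counts over all libraries and Cdx2 0, and Vil1, too low to test, was higher in DSS in each mouse. Macrophage markers (8 of 10 tested) summed to 1994 to 2877 CPM in control and 1255 to 2069 CPM in DSS, while Cd3e, of T cells, held 3 counts in all. Glial and neural markers (6 of 7 tested) summed to 349, 257 and 112 CPM in the control libraries of mice 1716, 1717 and 1718 and to 296, 187 and 107 CPM in their DSS libraries. Endothelial markers (6 of 7 tested) summed to 15.9 to 22.6 CPM in control and 13.0 to 17.3 CPM in DSS. Single markers also moved against these sums: the macrophage marker Cd68 (0.71 ± 0.14, edgeR adjusted p = 0.0158) and the neural marker Uchl1 (1.14 ± 0.23, 0.0183) rose. The part of these other cells in the results was not tested.

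All 40 genes were lower in the DSS than in the control library of the same mouse, in each of the 3 mice. That holds for levels scaled with TMM factors, and for Ckap2 in mouse 1718 it rests on them. There Ckap2 had 644 counts in control and 645 in DSS, in libraries of 17734405 and 17293680 counts. Scaled by library totals alone, Ckap2 was thus slightly higher in DSS in that mouse. Of all genes tested 28.5% were lower and 28.4% higher in all 3 mice. Summed over the 40 genes, the level was 2409, 1909 and 1497 CPM in the control libraries of mice 1716, 1717 and 1718 and 1690, 910 and 859 CPM in their DSS libraries. The DSS level was thus 0.702, 0.477 and 0.574 of the control level in the 3 mice. The median log2 fold change of the 40 genes was -0.81, with a range from -1.09 for Cdc20 to -0.20 for Ckap2, against 0.01 over all genes. The median within mice was -0.58 in mouse 1716, -1.12 in mouse 1717 and -0.84 in mouse 1718. Each library gives all 40 values, so the genes are not replicates of the comparison.

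By edgeR's quasi-likelihood test without the mouse as a term, 8 of the 40 genes fell (adjusted p under 0.05) and 0 rose, against 5.91% of all genes that fell and 7.37% that rose. The 8 were Ccnb2, Kif20a, Cdc20, Ube2c, Cenpa, Kif2c, Aurka and Bub1. With the mouse as a block, a fit that compares the libraries of the same animal, 39 of the 40 fell and 0 rose, against 12.7% of all genes that fell and 12.3% that rose. The exception was Ckap2 (edgeR adjusted p = 0.113 with the block). At an unadjusted p under 0.05 without the block 29 genes were lower and 0 higher. DESeq2 without the block called 24 lower and 0 higher (6.53% of all genes lower and 7.17% higher), and limma-voom 10 lower and 0 higher (5.75% of all genes lower and 6.97% higher). The count of 8 was 2 without any 1 of control 1716, control 1717, DSS 1717 or DSS 1718 (2.86% to 4.43% of all genes fell). It was 5 without control 1718 (3.19% of all genes) or with library totals alone (5.44%). Ccnb2 and Kif20a passed without each of the 6 libraries in turn, with edgeR adjusted p of at most 0.0320 and 0.0485, and Aurka, Bub1 and Kif2c missed the threshold without control 1718. The count was 37 without DSS 1716 (5.48% of all genes fell) and 36 without both libraries of mouse 1716 (4.45%). It was 0 without both libraries of mouse 1717 or of mouse 1718, where only 0.928% and 1.42% of all genes fell. The block fit called 39 of the 40 genes lower without mouse 1716 (11.9% of all genes fell) or mouse 1717 (9.08%). Without mouse 1718 it called 36 (7.08%).

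**Figure D2:**
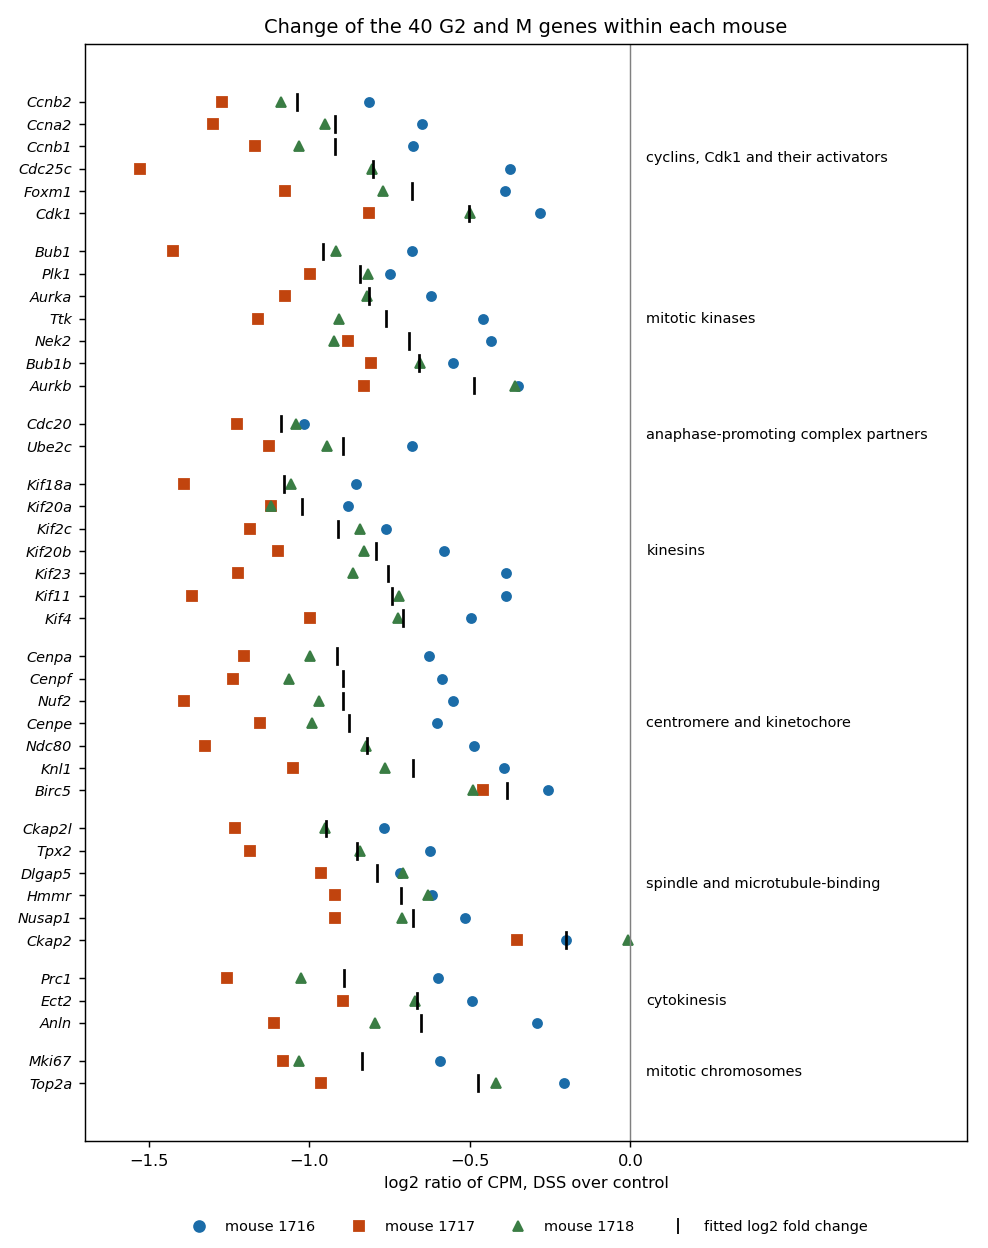
Log2 ratio of CPM, DSS over control (x axis), for each of the 40 genes within mouse 1716 (circles), mouse 1717 (squares) and mouse 1718 (triangles), grouped by role, with the log2 fold change fitted without the block as a vertical bar. All points lie left of 0, that of Ckap2 in mouse 1718 only barely, and mouse 1716 lies nearest to 0 for most genes.

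The 40 genes also shared an order of the mice. Control 1716 was the highest and control 1718 the lowest of the 3 control libraries for all 40 genes. Among the DSS libraries that of mouse 1716 was the highest for all 40, and the lowest was that of mouse 1718 for 29 genes and of mouse 1717 for 11. The median log2 ratio of control 1716 over control 1718 was 0.66 for the 40 genes and 0.00 for all genes, with a range from 0.25 to 0.97 over the 40. The DSS library of mouse 1716 stood above the control library of mouse 1718 for 27 of the 40 genes. All 3 DSS libraries lay below all 3 control libraries for 13 of the 40 genes, against 16.5% of all genes, and lay above them for 0 (17.7% of all genes). The 13 were the 8 called genes with Ccna2, Ccnb1, Cenpe, Ckap2l and Dlgap5, whose edgeR adjusted p without the block ran from 0.0507 to 0.0731. The glial and neural markers had the same order of mice in both groups, and their part in this spread was not tested. So had the summed other G2 and M genes described below (2016, 1626 and 1325 CPM in control, 1527, 892 and 838 CPM in DSS). Summed DNA replication genes had it in control (923, 673 and 647 CPM), with mouse 1716 also highest in DSS (767, 499 and 559 CPM). The DREAM and E2F list had it narrowly, and the G1, Cdk inhibitor and anaphase-promoting complex lists did not. The share of all genes with this order was not computed. The common dispersion over all genes was 0.0196 without the block and 0.00649 with it.

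**Figure D3:**
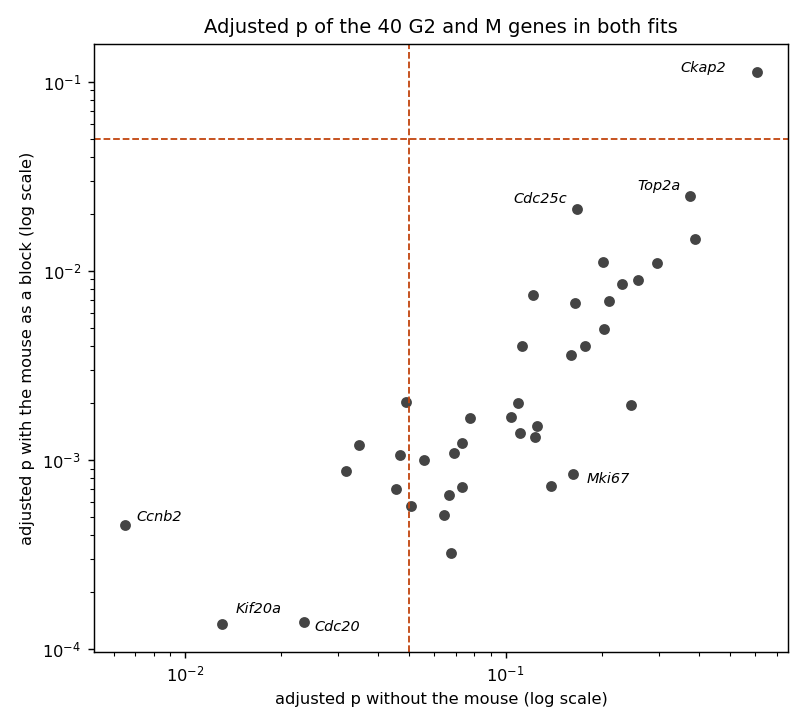
Adjusted p of each of the 40 genes by edgeR's quasi-likelihood test without the mouse (x axis, log scale) and with the mouse as a block (y axis, log scale), with dashed lines at 0.05. The 8 genes left of the vertical line passed without the block, and all but Ckap2 lie below the horizontal line.

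Among the cyclins, Cdk1 and their activators 1 of 6 genes fell without the block and all 6 with it, with a median log2 fold change of -0.86. Ccnb2 (NCBI Gene 12442, chromosome 9, 70407689 to 70421554, GRCm38), a B-type cyclin that activates Cdk1, stood at 29.4, 27.8 and 24.7 CPM in the control libraries of mice 1716, 1717 and 1718 and at 16.7, 11.5 and 11.6 CPM in their DSS libraries. The groups did not overlap, and the log2 fold change of -1.04 ± 0.16 (edgeR adjusted p = 0.00653) had the smallest p of the 40 genes. Ccnb1, the B-type cyclin that moves into the nucleus at the start of mitosis, was at 56.1, 46.9 and 35.5 CPM in control and 35.03, 20.8 and 17.4 CPM in DSS, in the same order of mice. Its groups did not overlap either, and it passed with the block (edgeR adjusted p = 0.000656) but not without (0.0668). Cdk1, the kinase itself, differed less than its cyclins in each mouse, at 48.4, 40.7 and 30.1 CPM in control and 39.8, 23.2 and 21.3 CPM in DSS. The DSS levels of Cdk1 were 82.2%, 56.9% and 70.7% of control, and the groups overlapped because DSS 1716 lay above control 1718. Its log2 fold change was -0.50 ± 0.26 (edgeR adjusted p = 0.259, and 0.00892 with the block). Whether Cdk1 and the cyclins differ in their change was not tested. Foxm1, the transcription factor that drives many of these genes, was at 48.8, 36.3 and 30.9 CPM in control and 37.2, 17.2 and 18.1 CPM in DSS. The groups overlapped, and Foxm1 passed with the block (edgeR adjusted p = 0.00494, 0.203 without). Cyclin A2 (Ccna2), which partners Cdk2 in S phase and Cdk1 in G2, and Cdc25c, a phosphatase that activates Cdk1, had log2 fold changes of -0.92 and -0.80. By edgeR on all libraries both passed with the block and not without it. DESeq2 without the block called Ccna2 (DESeq2 adjusted p = 0.00503) but not Cdc25c (0.0862).

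Of the 7 mitotic kinases 2 fell without the block and all 7 with it (median -0.76). Bub1, a kinase of the spindle checkpoint, which holds back division until every chromosome is attached, was at 33.1, 27.5 and 23.5 CPM in control and 20.7, 10.2 and 12.4 CPM in DSS. The groups did not overlap, with a log2 fold change of -0.96 ± 0.26 and an edgeR adjusted p of 0.0490. Aurka, the Aurora kinase of the spindle poles, was at 33.8, 28.5 and 23.9 CPM in control and 21.97, 13.5 and 13.5 CPM in DSS (log2 fold change -0.82 ± 0.22, edgeR adjusted p = 0.0469). With library totals alone neither passed (edgeR adjusted p = 0.0579 for Bub1 and 0.0560 for Aurka). Plk1, a kinase needed from mitotic entry to cell separation, stood at 45.7, 35.5 and 27.2 CPM in control and 27.2, 17.8 and 15.4 CPM in DSS. DSS 1716 lay just above control 1718 (27.22 against 27.17 CPM), and Plk1 passed with the block (edgeR adjusted p = 0.000323) but not without (0.0678). Aurkb, the Aurora kinase of the centromere and midzone, had the highest log2 fold change of the kinases, at -0.49 ± 0.33. Its level was 28.1, 19.2 and 14.4 CPM in control and 22.1, 10.8 and 11.2 CPM in DSS, so that the groups overlapped widely (edgeR adjusted p = 0.390, and 0.0148 with the block). Ttk and Bub1b, both of the spindle checkpoint, and Nek2, which parts the centrosomes, lay between, with log2 fold changes of -0.76, -0.66 and -0.69.

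Both partners of the anaphase-promoting complex fell in either fit. Cdc20 (NCBI Gene 107995, chromosome 4, 118432901 to 118437343), which activates the complex at the end of metaphase, was at 40.5, 31.3 and 24.6 CPM in control and 20.03, 13.4 and 11.95 CPM in DSS. In every mouse DSS was below control by a similar factor, at 49.4%, 42.7% and 48.6% of the control level. The log2 fold change of -1.09 ± 0.24 (edgeR adjusted p = 0.0235) was the lowest of the 40 genes. Ube2c, the enzyme that hands ubiquitin to the complex, was at 25.8, 23.3 and 18.4 CPM in control and 16.1, 10.7 and 9.56 CPM in DSS. The groups did not overlap, with a log2 fold change of -0.89 ± 0.21 (edgeR adjusted p = 0.0319). Cdc20 did not pass without any 1 of control 1716, control 1717, DSS 1717 or DSS 1718 (edgeR adjusted p = 0.0643 to 0.0779), nor without mouse 1717 (0.196) or mouse 1718 (0.0667). Of the 16 subunits and other partners of the same complex listed separately, 5 fell and 0 rose without the block, and 7 fell and 0 rose with it. Their median log2 fold change was -0.19. The 3 with the smallest p were Anapc5 (-0.58), Cdc27 (-0.33) and Anapc4 (-0.31).

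**Figure D4:**
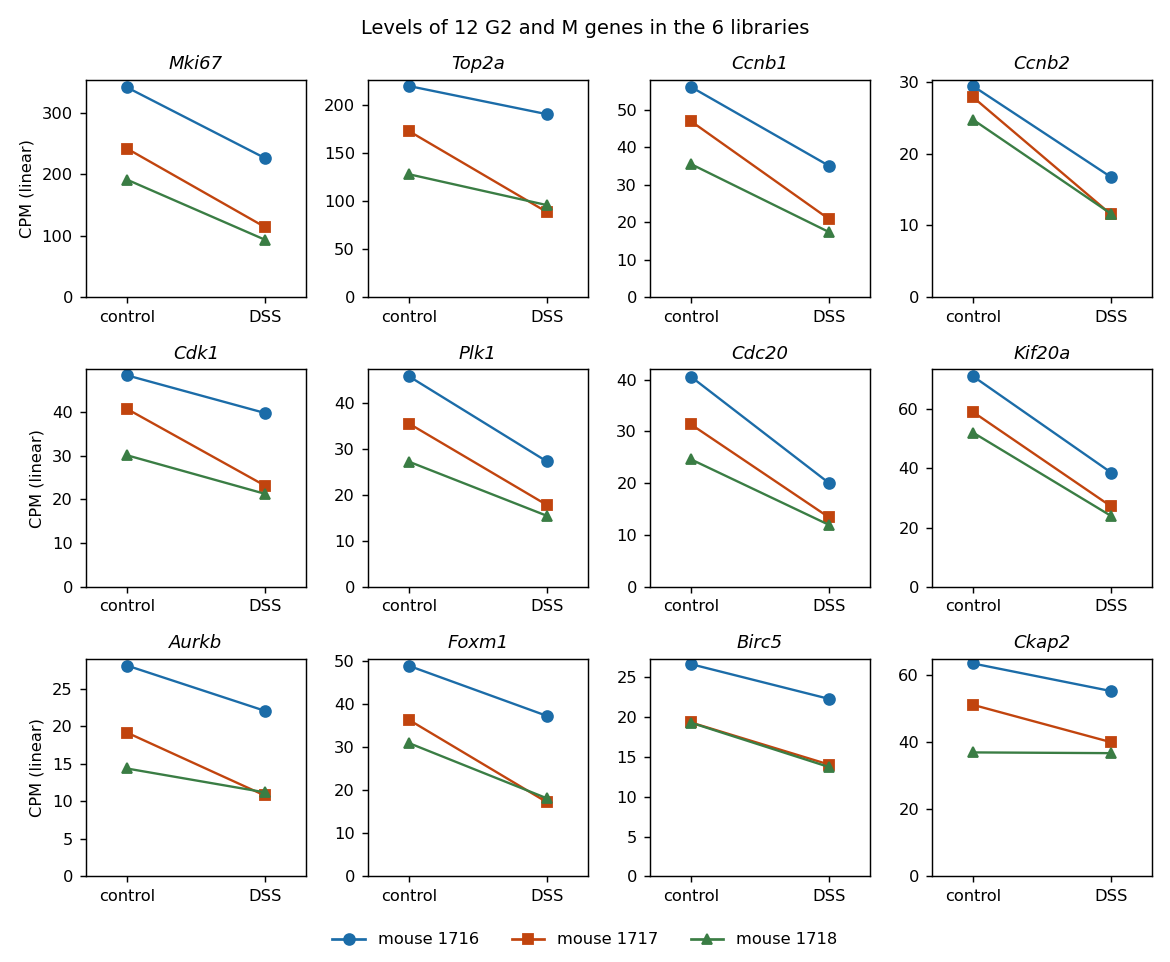
Level in CPM (y axis, linear, starting at 0) of 12 of the 40 genes in the control and DSS library of mouse 1716 (circles), mouse 1717 (squares) and mouse 1718 (triangles), with a line joining the libraries of a mouse. Every line runs downward with TMM factors, that of Ckap2 in mouse 1718 only barely, and the circles of mouse 1716 lie above the other mice in both groups.

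Of the 7 kinesins, motors that move along microtubules, 2 fell without the block and all 7 with it (median -0.79). Kif20a, which works in the midzone when the cell divides, stood at 71.2, 59.1 and 52.1 CPM in control and 38.6, 27.2 and 23.96 CPM in DSS. The groups did not overlap, with a log2 fold change of -1.02 ± 0.19 and an edgeR adjusted p of 0.0131. Kif2c, which takes apart microtubules at the centromere, was at 32.8, 26.1 and 21.1 CPM in control and 19.3, 11.5 and 11.8 CPM in DSS (log2 fold change -0.91 ± 0.24, edgeR adjusted p = 0.0455, 0.0538 with library totals alone). Kif18a, which limits the swing of chromosomes at the plate, had the fewest counts of the 40 genes, 47 to 212 in a library. At 10.7, 9.54 and 5.56 CPM in control and 5.93, 3.63 and 2.68 CPM in DSS its groups overlapped. By edgeR on all libraries it passed with the block only (log2 fold change -1.08 ± 0.34, edgeR adjusted p = 0.0774, 0.00167 with the block). DESeq2 without the block also called Kif18a (DESeq2 adjusted p = 0.0119). Kif20b, Kif23, Kif11 and Kif4 had log2 fold changes of -0.79, -0.75, -0.74 and -0.71. Kif11 pushes the spindle poles apart, and Kif23 is a part of the centralspindlin complex of dividing cells.

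At the centromere and kinetochore 1 of 7 genes fell without the block and all 7 with it (median -0.88). Cenpa, the histone H3 variant that marks the centromere, was at 35.4, 34.1 and 25.8 CPM in control and 22.9, 14.8 and 12.9 CPM in DSS. The groups did not overlap (log2 fold change -0.91 ± 0.22, edgeR adjusted p = 0.0348). Birc5, or survivin, a part of the chromosomal passenger complex with Aurkb, was at 26.6, 19.3 and 19.3 CPM in control and 22.3, 14.02 and 13.7 CPM in DSS. DSS 1716 exceeded 2 of the 3 control libraries. On all libraries the log2 fold change of -0.38 ± 0.22 passed with the block only (edgeR adjusted p = 0.296, 0.0110 with the block). The microtubule-binding kinetochore genes Ndc80, Nuf2 and Knl1 had log2 fold changes of -0.82, -0.89 and -0.68. The large kinetochore proteins Cenpe and Cenpf had -0.88 and -0.89. Without mouse 1718 Birc5 also missed the threshold with the block, as did Cdc25c, Top2a and Ckap2.

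Of the 6 spindle genes 0 fell by edgeR without the block and 5 with it (median -0.75). Without the block 4 were lower at an unadjusted p under 0.05, and DESeq2 called 4 and limma-voom 1 lower. Ckap2 (NCBI Gene 80986, chromosome 8, 22168149 to 22185819), which binds spindle microtubules, stood at 63.4, 51.1 and 36.9 CPM in control and 55.2, 39.96 and 36.7 CPM in DSS. Its DSS levels were 87.04%, 78.3% and 99.4% of control, with a log2 fold change of -0.20 ± 0.22 (edgeR adjusted p = 0.608), and it passed in none of the 18 alternative fits. Its relative Ckap2l had -0.95, Tpx2, an activator of Aurka, -0.85, and Dlgap5, which stabilises spindle fibres, -0.79. Hmmr and Nusap1, which bind and bundle microtubules, had -0.71 and -0.68. Of the 3 cytokinesis genes 0 fell by edgeR without the block and all 3 with it, 2 were lower at an unadjusted p under 0.05, and DESeq2 called 2 lower and limma-voom 0. Prc1, which bundles the midzone microtubules, had a log2 fold change of -0.89, Ect2, which switches on the contractile ring, -0.66, and Anln, which ties the ring together, -0.65.

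Neither gene of the mitotic chromosomes passed without the block, and both passed with it. By edgeR without the block 1 of them was lower at an unadjusted p under 0.05, and DESeq2 and limma-voom called 0. Mki67 (NCBI Gene 17345, chromosome 7, 135689784 to 135716450), which coats mitotic chromosomes and is the common marker of dividing cells, was at 342, 242 and 192 CPM in control and 227, 114 and 93.7 CPM in DSS. The DSS levels were 66.3%, 47.2% and 48.9% of control, but DSS 1716 lay above control 1718, and the log2 fold change was -0.84 ± 0.35 (edgeR adjusted p = 0.163). With the block it was -0.90 ± 0.10 (edgeR adjusted p = 0.000842). Top2a (NCBI Gene 21973, chromosome 11, 98992947 to 99024199), the topoisomerase that untangles sister chromosomes, was at 219.7, 173 and 128 CPM in control and 190.4, 88.6 and 95.8 CPM in DSS. DSS 1716 exceeded 2 of the 3 control libraries, with a log2 fold change of -0.47 ± 0.32 (edgeR adjusted p = 0.377, 0.0249 with the block).

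The table splits each gene's counts among its RefSeq transcripts, so shares of transcripts within a gene could be compared. Of 67 transcripts with a mean of at least 3 CPM, in 29 of the 40 genes, 11 had shares that did not overlap between the groups, 4 higher and 7 lower in DSS. That was 16.4%, against 14.3% of such transcripts of all genes, a share near that of all genes. Birc5, chosen after its values were seen, was split between 2 transcripts. The transcript NM_009689.2 took 38.7%, 38.4% and 31.6% of the gene in the control libraries of mice 1716, 1717 and 1718 and 27.9%, 24.0% and 16.2% in their DSS libraries. Its level, scaled by library totals alone, was 10.4, 7.29 and 5.98 CPM in control and 6.28, 3.31 and 2.25 CPM in DSS. The transcript NM_001012273.1 was at 16.5, 11.7 and 13.0 CPM in control and 16.3, 10.5 and 11.7 CPM in DSS. These are estimates by likelihood for transcripts that share sequence, with no test.

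Another 63 genes of G2 and M that are not among the 40 had a median log2 fold change of -0.62, and 62 of them were below 0. Of these 2 fell and 0 rose by edgeR without the block, and 54 fell and 0 rose with it. The 3 with the smallest p were Cks1b, a Cdk-binding subunit (-0.62 ± 0.10, edgeR adjusted p = 0.00715), Racgap1, the partner of Kif23 (-0.95 ± 0.24, 0.0423), and Hjurp, which places Cenpa (-0.54 ± 0.15, 0.0530). Of 40 DNA replication genes 0 fell or rose by edgeR without the block, where 5 were lower at an unadjusted p under 0.05, and DESeq2 and limma-voom called 0. With the block 21 fell and 0 rose, and the median was -0.38. Tyms, which makes thymidylate, had -0.32, and the clamp loader subunits Rfc5 and Rfc4 had -0.51 and -0.59. Whether these lists differ from the 40 genes in size of change was not tested.

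**Figure D5:**
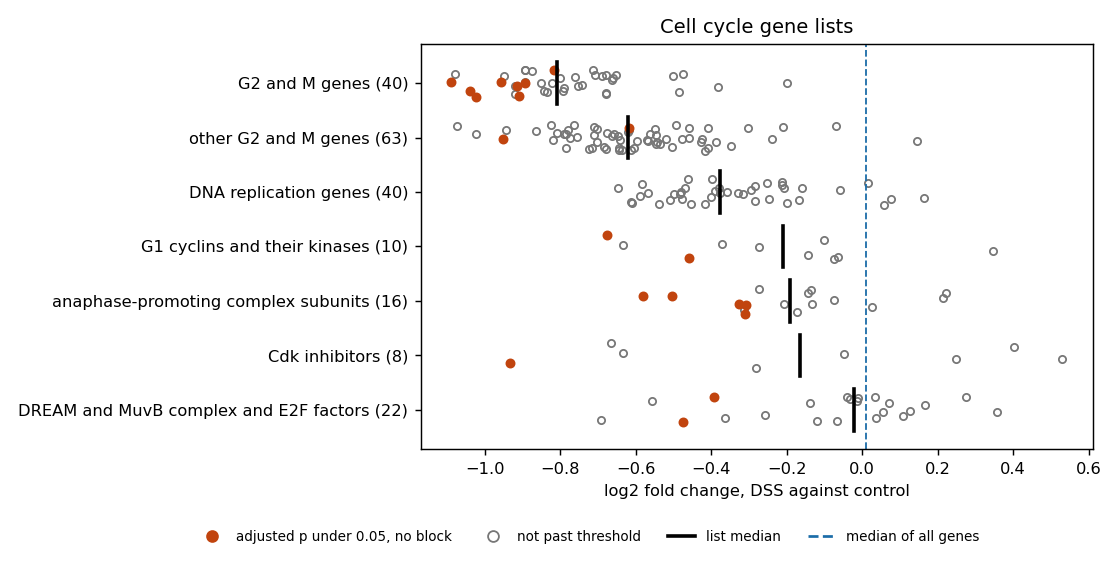
Log2 fold change, DSS against control without the block (x axis), of each tested gene of the 40 G2 and M genes and of 6 other cell cycle lists (number of genes in brackets), with filled points past an adjusted p of 0.05, a black bar at the list's median and a dashed line at the median of all genes. The medians are -0.81 for the 40 genes, -0.62 for other G2 and M genes and -0.38 for DNA replication genes.

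Upstream regulators and G1 genes were listed too. Of 22 genes of the DREAM and MuvB complexes, the E2F factors and NF-Y 2 fell and 0 rose without the block, 4 fell and 2 rose with it, and the median was -0.02. The 2 were Tfdp1, the partner of E2F factors (-0.39 ± 0.09, edgeR adjusted p = 0.0318), and Nfyc, a subunit of NF-Y (-0.48 ± 0.12, 0.0373), and neither passed with library totals alone. E2f6, a repressive E2F factor, had 0.36. The other genes called with the block are named after their values were seen. Mybl2, which encodes B-Myb, fell (block log2 fold change -0.74 ± 0.17, edgeR adjusted p = 0.0185), as did E2f7 (-0.61 ± 0.165, 0.0339). The 2 that rose with the block were E2f6 (0.35 ± 0.08, 0.0200) and Nfya, a subunit of NF-Y (0.27 ± 0.075, 0.0384). Of 10 G1 cyclins, their kinases and Myc 2 fell and 0 rose without the block, 5 fell and 1 rose with it, and the median was -0.21. The 2 were Ccnd3, a D-type cyclin, at 81.99, 78.3 and 75.8 CPM in control and 60.1, 55.7 and 56.1 CPM in DSS (edgeR adjusted p = 0.00534), and Ccne1, a cyclin of the entry into S phase, at 13.6, 12 and 13.1 CPM in control and 8.27, 8.12 and 7.85 CPM in DSS (0.00542). Ccnd2 had -0.37 and did not pass without the block. Of 8 Cdk inhibitors 1 fell and 0 rose without the block, and 4 fell and 2 rose with it. The gene that fell was Cdkn3, a phosphatase that acts on Cdk1 (-0.93 ± 0.21, edgeR adjusted p = 0.0262). Cdkn1a, or p21, was at 278, 297 and 288 CPM in control and 220.4, 259 and 229 CPM in DSS. By edgeR on all libraries it passed with the block only (edgeR adjusted p = 0.0598, 0.0121 with the block). Cdkn2d had -0.64. The 2 inhibitors that rose with the block, named after their values were seen, were Cdkn2a (block log2 fold change 0.52 ± 0.10, edgeR adjusted p = 0.00908) and Cdkn2b (0.41 ± 0.06, 0.00269).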

How the data were processed

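RNA-seq of 6 cultures (2 groups, 3 mice) was analysed. Libraries were directional and made from rRNA-depleted total RNA, per the labels' protocols. The authors deposited estimated counts per RefSeq transcript, made with kallisto per the submitters' processing notes, which name GRCm38 and mm10 as builds. Its version and settings are not stated in them. Such estimates can split the reads of look-alike transcripts wrongly.

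Estimated counts were summed by gene symbol and rounded. The filter was edgeR's filterByExpr at a minimum count of 10 and a total of 15, and TMM gave the size factors. The main test was the quasi-likelihood test of edgeR on group alone. Its p-values were adjusted over all 19869 genes (Benjamini-Hochberg) and called under 0.05. The SE is the log2 fold change divided by the square root of F. CPM use TMM factors. Fits were tested on simulated data. Versions were edgeR 4.0.16, DESeq2 1.42.0 and limma 3.58.1 under R 4.3.3, with Python 3.11.15.

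Control and DSS libraries pair by the animal they came from. Across genes, deviations from the group means correlated between the libraries of mice 1716, 1717 and 1718 with r = 0.35, 0.21 and 0.46, against -0.36 to 0.02 for different mice. Deviations within a group cancel, so positive values for the same mouse push those for different mice down. The latter are thus no independent baseline. The fit with the mouse as a replicate block was an alternative, as were other size factors, DESeq2, limma-voom, no filter, and fits without each library or mouse. The members and lists were chosen with earlier results of these data known. Values in every library are given for 7 core genes, all called members and the 4 largest and 4 smallest changes. From every other cell cycle list the 3 genes with the smallest p are named, most by log2 fold change only. Set tests were not run.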

Additional observations from a re-analysis of the deposited data

How the results depend on the processing

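Under each of the 18 alternatives all 40 members had a log2 fold change below 0, with medians from -0.63 to -1.19. What changed was the number of genes that passed the threshold, and the cause was not tested. Of the 40, 8 fell without the mouse block, 9 with DESeq2's size factors in edgeR, 10 with limma-voom, 9 with no filter, 5 with library totals alone and 24 with DESeq2. Over all genes 1174 fell and 1465 rose by edgeR without the block. The share of all genes that fell was 3.46% with no filter and 5.44% to 6.53% in the other fits just named.

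With the replicate block, which pairs the libraries of a mouse, 2518 genes fell and 2447 rose in the whole table. Of the members 39 fell, of other G2 and M genes 54, of DNA replication genes 21, of the DREAM and E2F list 4 (2 rose), of the G1 list 5 (1 rose) and of the Cdk inhibitors 4 (2 rose). The same paired fit without mouse 1716 gave 2375 lower and 2304 higher genes, and in the same order of lists 39, 57, 15, 4 (2 rose), 6 (1 rose) and 4 (2 rose). Without mouse 1717 it gave 1810 lower and 1877 higher genes. In that fit 39 members, 47 other G2 and M genes and 11 DNA replication genes fell, as did 4 G1 genes (1 rose) and 4 Cdk inhibitors (2 rose). Without mouse 1718 it gave 1422 lower and 1357 higher genes. In that fit 36 members, 47 other G2 and M genes and 12 DNA replication genes fell, as did 3 Cdk inhibitors (1 rose).

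Without the block, leaving out both libraries of mouse 1716 gave 887 lower and 940 higher genes. Counts for members and lists in this paragraph are of genes that fell, unless marked as risen. Without mouse 1716 these were 36 members, 35 other G2 and M genes, 5 DNA replication genes and 2 Cdk inhibitors. They also held 2 subunits of the anaphase-promoting complex and 0 of the DREAM and E2F list. Leaving out mouse 1717 gave 185 lower and 464 higher genes, and mouse 1718 286 lower and 378 higher. In both cases 0 members and 0 genes of the other 6 lists fell. Leaving out 1 library at a time gave 580 to 1108 lower and 769 to 1310 higher genes, and 2 to 37 members. It gave 1 to 44 other G2 and M genes, 0 to 6 DNA replication genes, 0 to 2 of the DREAM and E2F list (0 to 1 rose), 0 to 2 Cdk inhibitors and 1 to 3 subunits of the complex. DESeq2 called 15 other G2 and M genes and 3 Cdk inhibitors lower, and with library totals alone 0 of the DREAM and E2F list fell. With the promoter window held to the bases before the start, 13 members kept the homology region letters and 12 both motifs.

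With 3 mice, a gene of a few CPM such as Kif18a rests on 47 to 212 counts in a library. Counts carry no molecular tags, and the spread is that between 3 animals. Bulk RNA cannot tell the share of dividing cells from their RNA content. Passing with the block and not without it is no difference in effect, since the log2 fold changes of the 2 fits were close (medians -0.84 and -0.81).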
